A study of Mus musculus with 128 samples.

Results

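Zscan4b, Zscan4c, Zscan4d, Zscan4e, Zscan4f, Tcstv1 and Tcstv3 are mouse genes known for a burst of transcription at the 2-cell stage. They were chosen by name: of 8 names (Zscan4a to Zscan4f, Tcstv1 and Tcstv3), 7 were among the 41300 genes of the table, and Zscan4a, annotated as an unprocessed pseudogene, was not. Polyadenylated RNA was amplified by SMART-Seq from single MII oocytes, the unfertilized eggs arrested in the second meiosis, and from single embryos of 2, 4 or 8 cells, aged 1.5, 2.5 and 3.5 days post fertilisation. All were of the C57BL/6 strain, and the 8 groups, 4 stages in 2 genotypes, had 16 libraries each. Kdm4a encodes a demethylase of histone H3. Knockout sperm fertilized all eggs, so embryos called wildtype here are labelled m+/p- (a maternal copy and no paternal copy of Kdm4a) and knockout embryos m-/p- (no copy from either parent). The labels put the same genotype codes on the unfertilized oocytes. How the Kdm4a allele was made and how many mothers were used are not given in the sources used here, so p-values refer only to the spread among single oocytes or embryos, some of which may share a mother. The comparisons ask how the presence of maternal Kdm4a relates to the RNA of these genes at each stage.

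Zscan4 proteins carry a SCAN domain, which lets such factors pair with each other, and zinc fingers of the kind that bind DNA. In mouse they are transcribed when the zygotic genome is switched on, fall silent as cleavage proceeds, and return in brief pulses in a small fraction of embryonic stem cells, where they have been tied to telomere lengthening and genome stability. Tcstv1 and Tcstv3, named as members of a variable group of 2-cell-stage transcripts, are part of the same pulses in stem cells and have also been linked to telomere length there.

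The 5 Zscan4 genes lie on chromosome 7 of mm10 between positions 10900740 and 11402318, a span of 501.579 kb. In order they are Zscan4b (ENSMUSG00000095339.2, 10900740 to 10905050, minus strand), Zscan4c (ENSMUSG00000054272.6, 11005745 to 11010547, plus strand), Zscan4d (ENSMUSG00000090714.10, 11161374 to 11166159, minus strand), Zscan4e (ENSMUSG00000095936.3, 11306378 to 11310682, minus strand) and Zscan4f (ENSMUSG00000070828.10, 11397915 to 11402318, plus strand). Tcstv1 (ENSMUSG00000096284.2, 119893388 to 119894785, minus strand) and Tcstv3 (ENSMUSG00000095821.2, 120316878 to 120318178, plus strand) lie on chromosome 13, within 424.791 kb. All 7 are annotated as protein-coding.

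The copies are close to identical, and this bears on how far their counts can be told apart. RefSeq promoters (build GRCm38.p6, 250 bases before to 50 after the annotated start) were matched for 4 of the 8 names, and they are shown because these 4 genes rose and fell together across the stages. Capitals in Zscan4f, Zscan4d and Zscan4b mark bases that differ from the aligned base of Zscan4c, which is shown without capitals.
Zscan4c (chr7:11005495-11005794, plus strand): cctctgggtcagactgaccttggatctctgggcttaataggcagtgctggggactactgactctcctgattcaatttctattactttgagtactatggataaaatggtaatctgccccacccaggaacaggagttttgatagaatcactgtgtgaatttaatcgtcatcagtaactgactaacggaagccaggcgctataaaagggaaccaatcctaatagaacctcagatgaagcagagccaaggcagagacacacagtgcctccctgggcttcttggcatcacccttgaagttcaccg
Zscan4f (chr7:11397665-11397964, plus strand): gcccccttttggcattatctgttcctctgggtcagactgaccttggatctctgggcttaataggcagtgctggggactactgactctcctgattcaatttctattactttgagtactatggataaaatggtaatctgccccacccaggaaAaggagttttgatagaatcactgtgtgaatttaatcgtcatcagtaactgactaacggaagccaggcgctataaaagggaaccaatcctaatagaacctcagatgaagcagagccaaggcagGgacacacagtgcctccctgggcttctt
Zscan4d (chr7:11166099-11166398, minus strand): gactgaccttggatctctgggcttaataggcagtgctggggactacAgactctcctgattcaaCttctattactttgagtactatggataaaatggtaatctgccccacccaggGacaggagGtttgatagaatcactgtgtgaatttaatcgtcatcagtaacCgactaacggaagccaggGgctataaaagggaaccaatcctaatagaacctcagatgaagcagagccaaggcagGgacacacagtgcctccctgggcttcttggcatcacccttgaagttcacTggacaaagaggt
Zscan4b (chr7:10905001-10905300, minus strand): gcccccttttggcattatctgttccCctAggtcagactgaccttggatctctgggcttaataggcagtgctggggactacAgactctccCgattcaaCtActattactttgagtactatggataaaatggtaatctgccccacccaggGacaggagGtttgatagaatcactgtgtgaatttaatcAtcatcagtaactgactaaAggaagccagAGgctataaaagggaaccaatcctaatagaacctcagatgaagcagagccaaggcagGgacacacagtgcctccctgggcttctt
Over the bases that could be aligned, Zscan4f was 99.28% identical to Zscan4c, with 2 differing bases, Zscan4d was 97.23% identical, with 8, and Zscan4b was 95.31% identical, with 13. Each of the 4 windows held TATAAA (read on both strands) once, which 13.6% of 32851 promoters of the same length held. TGCACAC, searched on both strands, was in none of the 4 windows and in 4.4% of all promoters. CACGTG, which reads the same on both strands, was in none of the 4 and in 7.15% of all. A match describes these letters only.

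The transcripts were alike too. Pairs of Zscan4 transcripts were 94.08% to 97.48% identical over their aligned bases, and Tcstv1 and Tcstv3 were 83.91% identical. Of all stretches of 150 bases, the length of a read, 86.2% in Zscan4f, 77.4% in Zscan4e, 68.4% in Zscan4b, 61.0% in Zscan4c and 13% in Zscan4d occurred unchanged in another Zscan4 transcript, and none in Tcstv1 or Tcstv3 occurred in the other Tcstv transcript. Many of the deposited estimated counts were not whole: 83.2% of the non-zero values of Zscan4d and 94.3% to 95.6% of those of the other 4 Zscan4 genes were not whole numbers, against 2.70% for Kdm4a. For Tcstv1 and Tcstv3 it was 85.2% and 82.8%, although they shared no such stretch with each other, and matches elsewhere in the genome were not searched. Values of single Zscan4 copies are therefore uncertain, least so by sequence for Zscan4d, and the sum of the 5 is given beside them. Those of the Tcstv genes may also hold divided reads.

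Levels are in CPM, counts scaled to a fixed library total. The 127 libraries used held 528377 to 4657857 counts, so 3 counts stand for 0.644 to 5.68 CPM, and 8-cell knockout replicate 4, with too few counts, was left out. Kdm4a was 10.9 ± 3.05 CPM in wildtype, against 1.27 ± 0.904 CPM in knockout oocytes (mean ± SD, n = 16 each), and 15.1 ± 4.81 against 2.65 ± 1.83 CPM in 2-cell embryos. In 4-cell embryos it was 4.59 ± 3.58 against 1.76 ± 1.47 CPM. In 8-cell embryos it was 1.31 ± 1.16 against 1.99 ± 2.22 CPM (n = 16 and 15), with 5 of 15 knockout libraries above the highest wildtype library, so that at this stage Kdm4a did not check the labels. Summed over 10 oocyte markers, led by Oosp1 and Bmp15, the median level was 11906 and 15241 CPM in wildtype and knockout oocytes, 6234 and 6378 CPM in 2-cell embryos, and 60.2 to 194 CPM later. All 10 markers had counts in every group. The summed level of 12 cumulus-cell markers had a median of 94.3 and 101 CPM in oocytes and of 38.9 and 41.7 CPM at the 2-cell stage. Of these markers Cyp19a1 led, with means of 88.2 and 97.0 CPM in wildtype and knockout oocytes, and 5 of the 12 had 0 counts in all wildtype oocytes. The sum over 8 sperm markers never passed 7.66 CPM. The library labelled 8-cell knockout replicate 7 correlated best with the 2-cell median profile (r = 0.762, against 0.761 with the MII median and 0.125 with the 8-cell median). It held an oocyte marker sum of 3256 CPM and a Zscan4 sum of 3.37 CPM, far below every 2-cell embryo, and 8-cell knockout replicate 16 correlated best with the 4-cell median (0.939, against 0.913).

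Summed over its 5 copies, Zscan4 RNA was high in 2-cell embryos of both genotypes and near the floor at every other stage. In wildtype 2-cell embryos the sum was 555 CPM at the lowest, 1586 at the median and 3564 at the highest (1610 ± 815 CPM, mean ± SD, n = 16). In knockout 2-cell embryos it was 96.2, 455 and 2738 CPM (831 ± 779 CPM, n = 16). Every 2-cell embryo lay above every library of another stage.

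In oocytes the sum was 2.13, 7.80 and 12.1 CPM (lowest, median and highest) in wildtype and 0.705, 5.13 and 21.4 CPM in knockout. In 4-cell embryos it was 0, 2.34 and 39.0 CPM in wildtype and 0, 5.12 and 31.5 CPM in knockout. In 8-cell embryos it was 0, 0 and 5.39 CPM in wildtype and 0, 0.719 and 29.6 CPM in knockout, the last value in replicate 16. By median the order was 2-cell wildtype, 2-cell knockout, wildtype and knockout oocytes, 4-cell knockout, 4-cell wildtype, 8-cell knockout and 8-cell wildtype. Below the 2-cell stage in this order all neighbouring ranges overlapped, and so did those of the 2-cell genotypes.

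**Figure D1:**
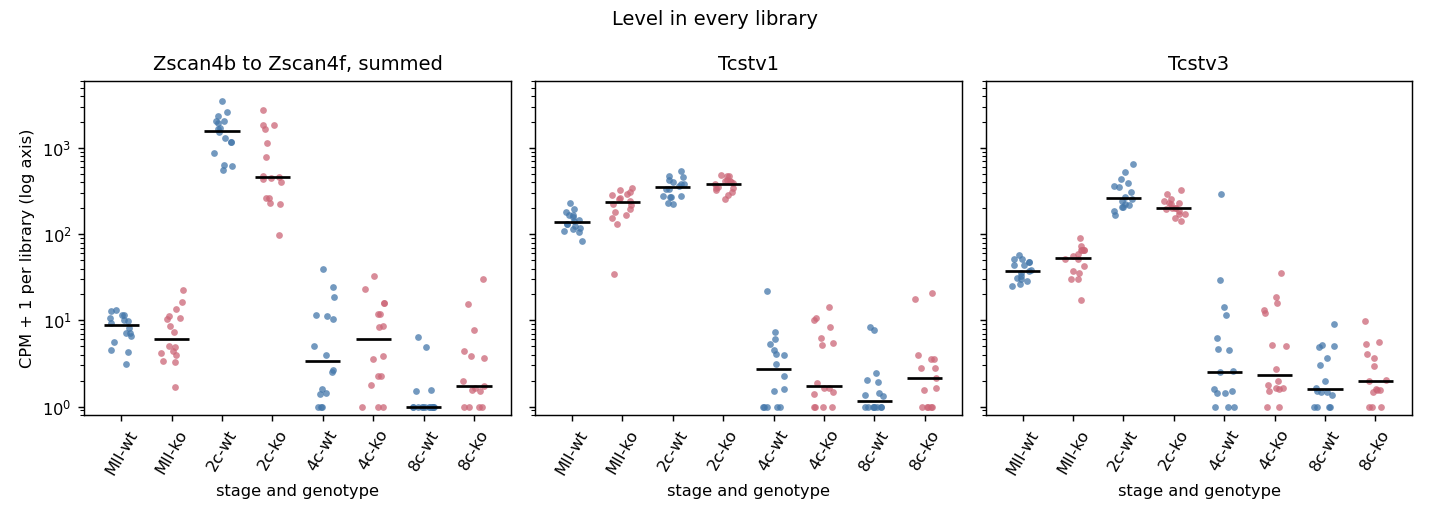
CPM + 1 on a log axis in each of the 127 libraries for the sum of the 5 Zscan4 genes, for Tcstv1 and for Tcstv3, by stage and genotype (blue wildtype, red knockout), with a black bar at each group's median. The Zscan4 sum stands above 96 CPM in all 2-cell libraries and below 40 CPM elsewhere, whereas Tcstv1 and Tcstv3 are present in oocytes already, and 4-cell wildtype replicate 11 stands apart with 294.7 CPM of Tcstv3.

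Tcstv1 RNA was already present in oocytes. It was 83.1, 137 and 232 CPM (lowest, median and highest) in wildtype oocytes and 33.7, 234 and 343 CPM in knockout oocytes, and 224, 348 and 547 CPM in wildtype and 253, 383 and 489 CPM in knockout 2-cell embryos. The ranges of oocytes and 2-cell embryos thus overlapped in both genotypes. In 4-cell embryos its median was 1.70 CPM in wildtype, against 0.747 CPM in knockout, with highest values of 20.9 and 13.3 CPM. In 8-cell embryos the medians were 0.162 and 1.12 CPM and the highest values 7.35 and 19.7 CPM, the latter in knockout replicate 7. The median order was 2-cell knockout, 2-cell wildtype, knockout oocytes, wildtype oocytes, and then the later groups, whose ranges all overlapped.

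Tcstv3 stood below Tcstv1 in oocytes on the scale of CPM per kb of exon: its mean was 49.3 against 103 CPM per kb in wildtype and 66.1 against 162 CPM per kb in knockout. In oocytes Tcstv3 was 23.8, 36.7 and 56.5 CPM (lowest, median and highest) in wildtype and 16.4, 52.7 and 90.5 CPM in knockout. In 2-cell embryos it was 168, 262 and 654 CPM in wildtype and 143, 202 and 323 CPM in knockout. All 2-cell values of a genotype lay above all its oocyte values. In 4-cell embryos the median was 1.53 CPM in wildtype, against 1.35 CPM in knockout, and in 8-cell embryos 0.586 and 1.01 CPM. One 4-cell wildtype embryo, replicate 11, held 294.7 CPM of Tcstv3, and the other 15 held at most 28.2 CPM. The same embryo had the highest 4-cell wildtype values of Tcstv1 (20.9 CPM) and of the Zscan4 sum (39.0 CPM).

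Per kb of exon, the order of the members in wildtype 2-cell embryos was Tcstv3 with a mean of 401 CPM per kb, Zscan4d with 258, Tcstv1 with 252, Zscan4f with 234, Zscan4c with 192, Zscan4b with 45.9 and Zscan4e with 42.7. In knockout 2-cell embryos Tcstv3 and Tcstv1 stood at 273 and 271 CPM per kb, Zscan4d at 150, Zscan4f at 106, Zscan4c at 98.5, Zscan4e at 21.1 and Zscan4b at 19.5. Ranges of embryos overlapped between neighbours in both orders. Within the Zscan4 sum the median share of Zscan4d was 38.1% in wildtype and 43.8% in knockout, that of Zscan4c 25.8% and 28.1%, and that of Zscan4f 25.4% and 21.9%. Zscan4b made up 5.05% and 2.81%, and Zscan4e 4.73% and 3.70%. The split between copies rests in part on how shared reads were divided.

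Between MII and the 2-cell stage 6 of the 7 genes rose in each genotype (edgeR quasi-likelihood test, a Benjamini-Hochberg adjusted p under 0.05 together with at least a 2-fold change). Of all genes tested, 31.3% rose in wildtype and 29.9% in knockout. In oocytes alone only Zscan4d, Tcstv1 and Tcstv3 passed the filter on low counts. Zscan4b, Zscan4c, Zscan4e and Zscan4f entered this step by their high 2-cell counts, so for them the filter itself favoured a rise. Zscan4d, the copy with the fewest shared stretches, rose by a log2 fold change of 6.94 (SE 0.40) in wildtype and 5.87 (SE 0.38) in knockout. Zscan4c rose by 7.60 (SE 0.49) and 6.82 (SE 0.49), Zscan4b by 5.86 (SE 0.48) and 5.16 (SE 0.50), and Zscan4e by 5.99 (SE 0.49) and 5.53 (SE 0.51). The value of Zscan4f was the highest, 9.20 (SE 0.56) and 8.62 (SE 0.58), but it rests on a median of 1 count per oocyte in both genotypes. The summed family changed by 7.31 (SE 0.43) and 6.38 (SE 0.42).

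Tcstv3 rose by 2.57 (SE 0.17) in wildtype and by 1.62 (SE 0.16) in knockout. Tcstv1 did not reach the fold required, at 0.84 (SE 0.15) in wildtype and 0.32 (SE 0.15) in knockout, though RLE factors, which place the median of all genes at 0.33 instead of 0.17, and DESeq2 called its rise in wildtype. The step differed between genotypes for Tcstv3: the interaction term, knockout minus wildtype, was -0.96 (SE 0.23, adjusted p = 0.00959 in edgeR's quasi-likelihood test), and 4.11% of all genes tested had such a difference (211 higher and 210 lower, or 165 and 263 with RLE factors). For Tcstv1 this term was -0.52 (SE 0.22, adjusted p = 0.153), and for the Zscan4 copies it ran from -1.07 (SE 0.51, Zscan4d, adjusted p = 0.226) to -0.46 (SE 0.87, Zscan4e, adjusted p = 0.831). The Tcstv3 term was not called within replicates 1 to 8 alone or 9 to 16 alone, where 508 of 10159 and 5 of 10185 genes were called.

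Between the 2-cell and the 4-cell stage all 7 genes fell in both genotypes. Of all genes tested, 43.4% fell in wildtype and 41.8% in knockout. None of the 7 genes passed the filter on low counts at the 4-cell stage alone. They entered this step by their high 2-cell counts, so the filter itself favoured a fall. The largest fall in wildtype was that of Zscan4e, with a log2 fold change of -9.15 (SE 0.62), and in knockout that of Zscan4c, with -9.47 (SE 0.64). Zscan4d changed by -7.92 (SE 0.62) and -5.97 (SE 0.56), Tcstv1 by -7.05 (SE 0.45) and -6.98 (SE 0.45), and Tcstv3 by -4.21 (SE 0.62) and -5.33 (SE 0.67). The 4-cell ends of these steps rest on a median of at most 6.5 counts per embryo. Without 4-cell wildtype replicate 11 the wildtype value of Tcstv3 was -6.34.

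Genotypes did not differ in this step past the threshold for any of the 7 genes. EdgeR called 0 of 7, against 15.5% of all genes tested, and DESeq2 called 0 of 6. By edgeR 1 of the 7 had an unadjusted p under 0.05, as had 3181 of all 10766 genes tested. The nearest to it was Zscan4d, whose fall was smaller in knockout by 1.95 (SE 0.73, adjusted p = 0.0554). Without 4-cell wildtype replicate 11 this term was 2.33 and was called, as were those of 1767 of 10875 genes tested. The median 4-cell level of Zscan4d was 0.583 CPM in wildtype, against 4.13 CPM in knockout, with ranges of 0 to 15.2 and 0 to 28.2 CPM. For the Zscan4 sum, fitted as 1 gene, the term was 1.03 (SE 0.72). The remaining 6 terms ran from -1.44 (SE 0.87, Zscan4c) to 1.98 (SE 1.09, Zscan4e).

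At the 4-cell and 8-cell stages none of the 7 genes had enough counts to enter the test between genotypes. Between these stages Zscan4d alone was tested, and it fell by 2.23 on the log2 scale in wildtype (SE 0.90, edgeR adjusted p = 0.0454), where 11.3% of all genes fell. Without 4-cell wildtype replicate 11, which held 15.2 CPM, Zscan4d did not pass the filter on low counts. Neither DESeq2 (adjusted p = 0.0946) nor edgeR without a filter (adjusted p = 0.0805) made this call. In knockout its value was -2.18 (SE 0.86, adjusted p = 0.0600), where 3.88% of all genes fell. The interaction term was 0.06 (edgeR adjusted p = 0.979), and 2.73% of all genes had one past the threshold. Its SE is not given, because the form used here is unreliable for a change this small. Fitted as 1 gene, the Zscan4 sum changed by -3.53 (SE 0.88) in wildtype and -0.82 (SE 0.77) in knockout, a difference of 2.72 (SE 1.13). That difference was 1.85 (SE 1.12) without 8-cell knockout replicates 7 and 16 and 2.27 (SE 1.12) without 4-cell wildtype replicate 11. For the Tcstv sum the difference was 2.28 (SE 1.02), 1.59 (SE 1.01) and 0.35 (SE 0.87) in the same order. These values of sums, fitted in part after seeing the data, carry no p. In 8-cell wildtype embryos Zscan4b, Zscan4c and Zscan4e had 0 counts in all 16 libraries, which allows levels of up to 0.971 to 1.95 CPM in single libraries (3 counts, counting error only). In 8-cell knockout embryos 6 of 15 libraries had more than 3 counts of the Zscan4 sum, against 2 of 16 in wildtype. Knockout replicate 16, the library nearest to the 4-cell profile, held the highest values of Zscan4b (13.8 CPM), Zscan4c (7.55 CPM) and Zscan4f (6.92 CPM).

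In oocytes Tcstv1 was higher in knockout and the other 2 genes that could be tested were not called. Tcstv1 was 144 ± 38.5 CPM in wildtype, against 226 ± 81.1 CPM in knockout (mean ± SD, n = 16 each). Of the knockout oocytes, 14 of 16 lay above the wildtype median and 8 of 16 above every wildtype oocyte, while replicate 15 lay below all of them with 33.7 CPM. The log2 fold change of Tcstv1 was 0.66 (SE 0.17, edgeR adjusted p = 0.00962). Of all genes tested in oocytes, 12% were called and 5.27% were higher in knockout, and at least 8 knockout oocytes lay above every wildtype oocyte in 2.66%.

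Tcstv3 pointed the same way in oocytes, with 38.4 ± 10.03 CPM in wildtype, 51.5 ± 19.2 CPM in knockout and a log2 fold change of 0.43 (SE 0.16, adjusted p = 0.0644). In 7 of 16 knockout oocytes Tcstv3 lay above the highest wildtype value, and 3.98% of all genes had at least 7 such oocytes. Knockout replicate 15 had the lowest Tcstv1 and Tcstv3 of its group and an oocyte marker sum of 3073 CPM, the lowest of all oocytes. Without it both genes were called, with 0.74 for Tcstv1 and 0.50 for Tcstv3, as were 1517 of all 7742 genes tested. Tcstv1 was called within replicates 1 to 8 (0.75, SE 0.14), where 658 of 7719 genes were called. It was not called within replicates 9 to 16 (0.57, SE 0.30), where 161 of 7539 genes were called. Limma on log2(CPM + 1), chosen after seeing the data, gave Tcstv1 0.55 (SE 0.21, adjusted p = 0.0853) and called 3.5% of all genes higher. Over 11 alternatives the adjusted p of Tcstv1 ran from 0.000107 to 0.336. Zscan4d was 3.47 ± 1.80 CPM in wildtype, against 4.18 ± 4.01 CPM in knockout oocytes (log2 fold change 0.31, SE 0.35, adjusted p = 0.630), and the Zscan4 sum, fitted as 1 gene, was at -0.014 (SE 0.31).

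Of the 9 oocyte markers tested in the same oocytes, 3 were higher and 1 lower in knockout, beside 5.27% higher and 6.69% lower over all genes. The rest of the 9 were not called. Nlrp5, of the maternal complex beneath the egg surface, was 326 ± 89.0 and 771 ± 404 CPM (1.25, SE 0.18, adjusted p = 9.64e-06). Zp2, of the egg coat, was 177 ± 30.3 and 283 ± 134 CPM (0.69, SE 0.15, adjusted p = 0.00283), and Bmp15, a growth factor of the oocyte, had means of 3312 and 5321 CPM (0.69, SE 0.16, adjusted p = 0.00480). Npm2, a histone chaperone of the egg, was 208 ± 62.5 and 130 ± 40.0 CPM (-0.66, SE 0.14, adjusted p = 0.00110). The part of these differences in that of Tcstv1 was not tested.

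In 2-cell embryos the levels of all 5 Zscan4 genes lay below the wildtype median in 12 to 15 of 16 knockout embryos, and edgeR called none of the 5. By edgeR the unadjusted p was under 0.05 for all 5 copies, which share reads, and for 2769 of all 8728 genes tested. DESeq2 also called 0 of the 5 after adjustment. The wildtype sums, from the highest embryo down, were 3564, 2622, 2329, 2070, 2047, 1949, 1687, 1650, 1522, 1300, 1182, 1161, 875, 637, 615 and 555 CPM. The knockout sums were 2738, 1834, 1828, 1668, 1143, 778, 475, 457, 454, 437, 404, 265, 262, 229, 223 and 96.2 CPM. Thus 10 of 16 knockout embryos lay below the lowest wildtype embryo and under 500 CPM, a number that 1.01% of single genes tested reached, while 5 of 16 knockout and 12 of 16 wildtype embryos held 1000 CPM or more. Each library is a whole embryo, so fewer cells with Zscan4 RNA and less of it per cell cannot be told apart.

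Single copies followed the sum. Zscan4d had a median of 519 CPM in wildtype (260 to 1565) and 227 CPM in knockout (64.8 to 817), and Zscan4c of 395 CPM (126 to 908) and 93.0 CPM (20.4 to 866). In both genes 9 of 16 knockout embryos lay below every wildtype embryo, as they did in 1.51% of all genes tested. Zscan4f had medians of 428 CPM (85.0 to 776) and 108 CPM (8.15 to 706), Zscan4b of 87.8 CPM (13.6 to 192) and 13.8 CPM (2.04 to 175), and Zscan4e of 80.4 CPM (13.6 to 131) and 18.5 CPM (0.815 to 174). For Zscan4b 8 knockout embryos, and for Zscan4e and Zscan4f 7 each, lay below every wildtype embryo, against 2.19% of all genes with at least 8 and 3.36% with at least 7. Knockout replicate 6 carried the highest knockout value and replicate 3 the lowest of all 5 copies.

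**Figure D2:**
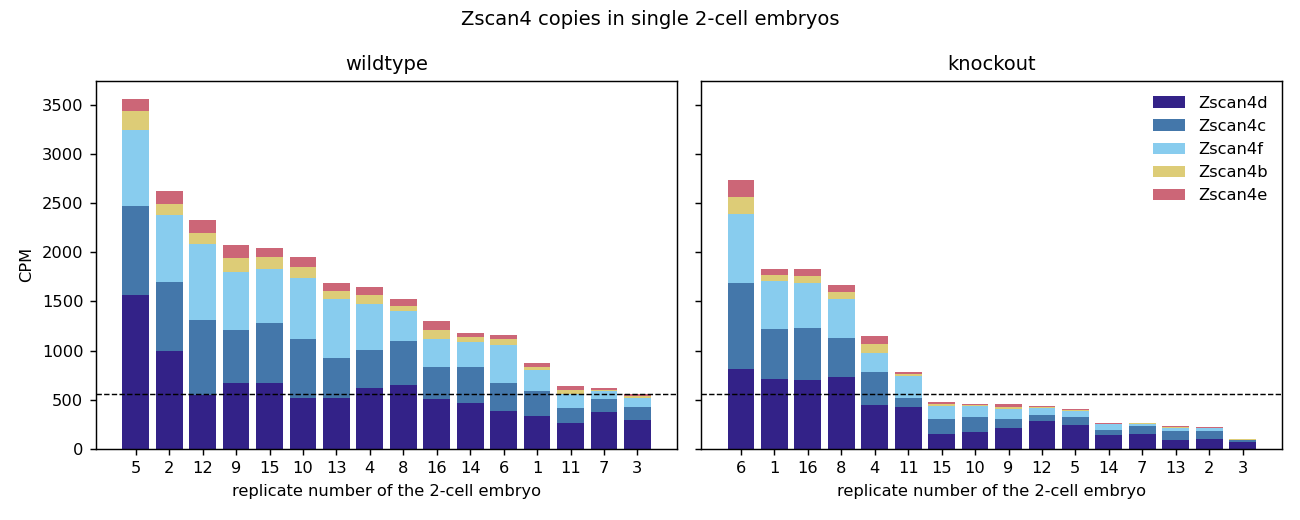
CPM of the 5 Zscan4 genes, stacked, in each wildtype and each knockout 2-cell embryo, ordered by their sum, with replicate numbers below the bars and a dashed line at the lowest wildtype sum. The line stands at 555 CPM, 10 of 16 knockout embryos end below it, and Zscan4d, Zscan4c and Zscan4f make up most of each bar.

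The edgeR log2 fold changes, knockout minus wildtype, were -1.21 (SE 0.49, adjusted p = 0.0837) for Zscan4b, -0.94 (SE 0.41, adjusted p = 0.109) for Zscan4c and -0.75 (SE 0.33, adjusted p = 0.112) for Zscan4d. They were -0.98 (SE 0.46, adjusted p = 0.137) for Zscan4e and -1.11 (SE 0.47, adjusted p = 0.0966) for Zscan4f. The median over the 7 members tested was -0.94, beside -0.01 over all genes tested. Fitted as 1 gene, the Zscan4 sum gave -0.93 (SE 0.38), and mean and median of the sum were 1.94-fold and 3.48-fold higher in wildtype.

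This call differed between tests. With limma on log2(CPM + 1), an alternative chosen after seeing the data that changes both the scale and the model of the spread, all 5 copies were lower in knockout, from -1.06 (SE 0.33, adjusted p = 0.0239) for Zscan4d to -1.86 (SE 0.49, adjusted p = 0.00969) for Zscan4b. By that test 10.8% of all genes were lower. Over 42 alternatives per gene the adjusted p-values of Zscan4b, Zscan4c, Zscan4d, Zscan4e and Zscan4f ran from 0.00969 to 0.821, and 2 to 4 alternatives called each of them. Of the 42, 32 left out a single embryo and share all others with the main fit, so these counts are not a rate over independent analyses. Without knockout replicate 6, edgeR called Zscan4b, Zscan4c, Zscan4e and Zscan4f, and Zscan4b stood at -1.65. In that fit 1387 of 8839 genes were called, 803 of them lower in knockout.

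The difference was also uneven over the replicate numbers. Among replicates 1 to 8 the sum had a median of 1341 CPM in wildtype and 774 CPM in knockout, and the 5 fold changes ran from -0.65 (Zscan4d) to -0.29 (Zscan4e), none of them called. Among replicates 9 to 16 the medians were 1818 and 455 CPM, and the fold changes ran from -2.16 (Zscan4b) to -0.90 (Zscan4d), with Zscan4b and Zscan4e called. Of all genes tested, edgeR called 1375 of 8682 in replicates 1 to 8 and 140 of 8584 in replicates 9 to 16. The labels do not say what, if anything, a replicate number marks.

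**Figure D3:**
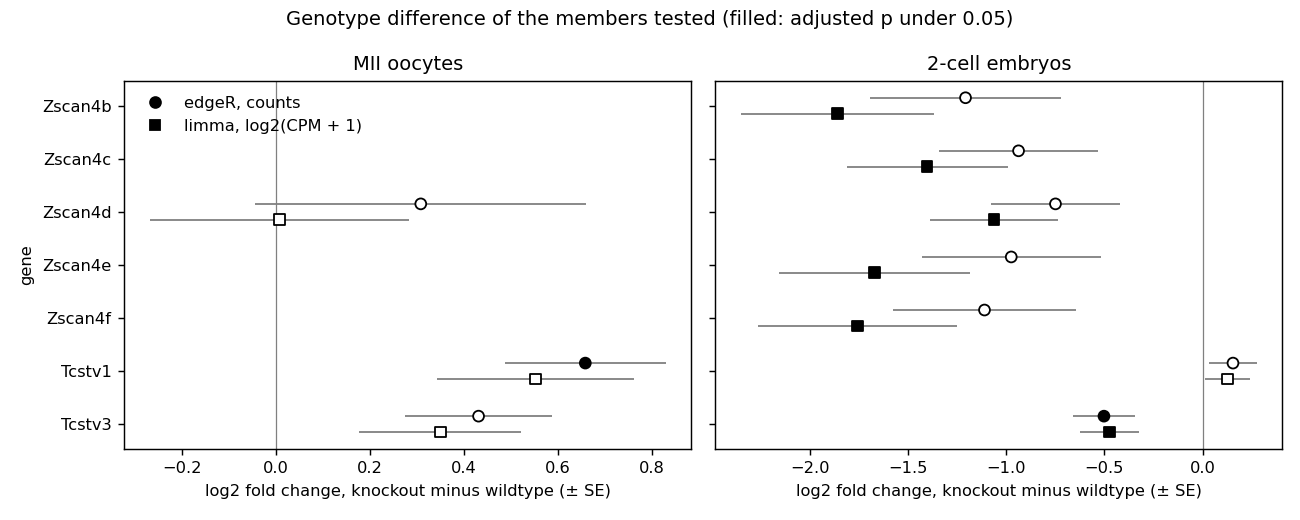
Log2 fold change of each member tested, knockout minus wildtype, in oocytes and 2-cell embryos, with bars of 1 SE, from edgeR on counts (circles) and limma on log2(CPM + 1) (squares); filled symbols have an adjusted p under 0.05. The 5 Zscan4 genes lie between -1.86 and -0.75 at the 2-cell stage and are filled only for limma, Tcstv3 is filled there for both tests, and Tcstv1 is filled in oocytes for edgeR alone.

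Tcstv3 was the 1 member of 7 that edgeR called between genotypes at the 2-cell stage, where 17.3% of all genes tested were called and 10% were lower in knockout. Its level was 312 ± 134 CPM in wildtype, against 213 ± 47.8 CPM in knockout (mean ± SD, n = 16 each), with a log2 fold change of -0.50 (SE 0.16, adjusted p = 0.0239). Of the knockout embryos 14 of 16 lay below the wildtype median, but only 2 below the lowest wildtype embryo, as at least 2 did in 29.7% of genes. The call was lost without wildtype replicate 12, the embryo with 654 CPM (-0.39, adjusted p = 0.0521), without a filter on low counts (adjusted p = 0.0565) and within each set of replicate numbers (-0.30 in replicates 1 to 8 and -0.70 in 9 to 16). Tcstv1 was 353 ± 93.9 CPM in wildtype, against 379 ± 68.4 CPM in knockout (0.16, SE 0.12, adjusted p = 0.393), and 10 of its 16 knockout values passed the wildtype median.

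The spread between embryos set the families apart, most clearly in knockout. In wildtype 2-cell embryos the coefficient of variation (SD over mean of CPM) ran from 51.4% for Zscan4e to 59.7% for Zscan4b, beside a median of 38.9% over all genes tested. In knockout embryos it ran from 77.3% for Zscan4d to 131% for Zscan4b, beside a median of 35.8%. Between 72.1% and 82.6% of the genes tested varied less than these copies in wildtype, and between 95.3% and 99.7% in knockout. Tcstv1 varied by 26.6% in wildtype and 18.1% in knockout, and Tcstv3 by 43.0% and 22.5%. These spreads are given as descriptions, with no test of the difference between genotypes.

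The Zscan4 copies varied together from embryo to embryo. Over 10 pairs of copies, Pearson's r of log2(CPM + 1) ran from 0.748 to 0.965 in wildtype (median 0.925). In knockout it ran from 0.852 to 0.955 (median 0.917), with n = 16 embryos in each genotype. The other r values of this paragraph use the same scale for RNA levels. Shared reads and a shared library total enter these values. The Zscan4 sum and Tcstv1 had r = 0.48 (Spearman's rho 0.41) in wildtype and r = -0.04 (rho -0.17) in knockout. The Zscan4 sum and Tcstv3 had r = 0.53 (rho 0.51) and r = 0.37 (rho 0.39). With the number of genes detected in the library the Zscan4 sum had r = 0.48 in wildtype and -0.15 in knockout, and with the log10 library total 0.20 and 0.13. With Kdm4a, at a few counts per knockout library, it had r = 0.10 (rho 0.12) in wildtype and r = -0.55 (rho -0.40) in knockout. The part of these library measures in the genotype difference was not tested.

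**Figure D4:**
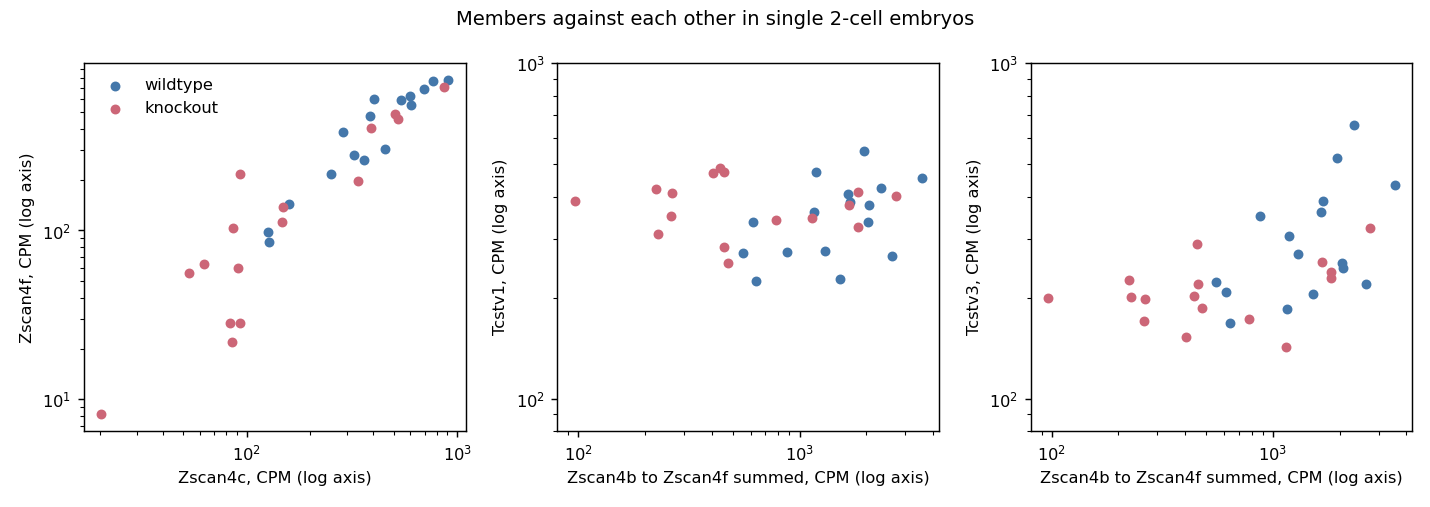
CPM on log axes in the 16 wildtype (blue) and 16 knockout (red) 2-cell embryos, for Zscan4f against Zscan4c, and for Tcstv1 and Tcstv3 against the sum of the 5 Zscan4 genes. Zscan4f and Zscan4c lie along 1 band in both genotypes, whereas Tcstv1 stays between 224 and 547 CPM along the whole range of the Zscan4 sum.

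Genes were ranked by the likeness of their log2(CPM + 1) to that of the Zscan4 sum, among 7259 genes with at least 5 CPM at the 2-cell stage. Over all 127 libraries, where the stages set the ranking, the nearest were Kif17 (a kinesin motor, r = 0.914), Hddc3 (0.907), Lypd3 (a surface protein held by a lipid anchor, 0.905), Skint6 (0.899), Usp17lc (of a family of ubiquitin-removing enzymes, 0.893) and Ccdc60 (0.893). Over the 32 2-cell embryos, after each genotype's mean was subtracted, they were Pramef25 (0.770), Usp17le (0.748), Pramef6 (0.743), Usp17la (0.738), Zfp54 (a zinc finger gene, 0.732) and Usp17lb (0.729). Pramef25 and Pramef6 belong to the leucine-rich PRAME family. In the same 32 embryos Tcstv3 stood at 0.387 and Tcstv1 at 0.177. The mean of Pramef25 was 207 CPM in wildtype, against 99.5 CPM in knockout 2-cell embryos, and that of Zfp54 was 187 and 62.5 CPM.

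Other genes listed from background knowledge as 2-cell transcripts were also compared. In wildtype all 19 that could be tested were higher at the 2-cell stage than in oocytes, a step in which 31.3% of all genes rose. In oocytes alone only 3 of the list passed the filter on low counts. For most of the 19 the filter itself thus favoured a rise. In the next wildtype step, to 4 cells, 11 of the 19 fell and 4 rose, where 43.4% of all genes fell and 31.3% rose. Of 31 names 20 were in the table and 18 were tested at the 2-cell stage, where 8 were lower in knockout and 0 higher by edgeR. The background was 10% lower and 7.3% higher, and the median of the list was -0.80 beside -0.01 over all genes. The list holds several genes each of the Tdpoz, Usp17l and Pramef families. Such relatives may share reads or vary together, so its counts are not of independent genes. Tmem92, a membrane protein gene active in 2-cell-like stem cells, was 99.3 ± 70.9 CPM in wildtype, against 29.7 ± 13.4 CPM in knockout (-1.68, SE 0.26, adjusted p = 4.31e-05). Ubtfl1, an HMG-box gene of the early embryo, was 120 ± 50.3 and 44.3 ± 22.3 CPM (-1.39, SE 0.22, adjusted p = 4.4e-05). Sp110, a nuclear body protein, was 465 ± 142 and 283 ± 49.9 CPM (-0.66, SE 0.12, adjusted p = 0.000182). In these 3 genes, named for the smallest p of the list at this stage, all 16 knockout embryos lay below the wildtype median. That choice favours such a separation, and its share over all genes was not counted. Sp110 and Ubtfl1 were not transient: their wildtype means were 1438 and 234 CPM at the 4-cell stage and 1268 and 202 CPM at the 8-cell stage. In oocytes 3 genes of this list were tested and all 3 were lower in knockout, where 6.69% of all genes were. They were Tmem92, with means of 29.9 and 12.7 CPM (-1.21, SE 0.24, adjusted p = 0.000829), Sp110, with 165 and 109 CPM (-0.59, SE 0.13, adjusted p = 0.00334), and Arg2, an arginine-degrading enzyme, with 13.6 and 8.73 CPM (-0.63, SE 0.17, adjusted p = 0.0124).

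Among genes reported to activate this programme, such as Dppa2, Dppa4 and Nelfa, 11 of 13 names were in the table and 7 were tested at the 2-cell stage, where 1 was lower and 0 higher (median -0.16). Dux, whose protein activates this programme in stem cells, is listed as Duxf3; with means of 6.85 CPM in wildtype and 5.66 CPM in knockout it was too low to be tested at the 2-cell stage, where 10% of all genes were lower. At the 4-cell stage 2 of 7 were lower: Nfya, a subunit of the CCAAT-binding factor NF-Y, at 16.1 ± 13.6 CPM in wildtype and 5.33 ± 5.34 CPM in knockout (-1.62, SE 0.41, adjusted p = 0.00604), and Dppa2, a chromatin protein upstream of Dux, at 2250 ± 480 and 1706 ± 476 CPM (-0.41, SE 0.14, adjusted p = 0.0365). Of all genes tested at the 4-cell stage 7.46% were lower and 8.97% higher.

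Among genes reported to hold the programme down in stem cells, 21 of 26 were tested at the 2-cell stage, with 3 lower and 0 higher (median 0.09), beside 10% lower and 7.3% higher over all genes. At the 4-cell stage 5 of 23 were lower and 1 higher, beside 7.46% and 8.97%. L3mbtl2, a subunit of a variant Polycomb complex, was 16.1 ± 5.37 and 7.79 ± 3.82 CPM (-1.05, SE 0.25, adjusted p = 0.00347), and Mga, of the same complex, 288 ± 107 and 191 ± 68.8 CPM (-0.59, SE 0.18, adjusted p = 0.0210). Zfp281, a zinc finger factor of stem cells, was 295 ± 121 and 165 ± 61.9 CPM (-0.84, SE 0.21, adjusted p = 0.00481).

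Of 15 genes of telomere upkeep and meiotic recombination, the processes Zscan4 is tied to, 13 were tested at the 2-cell stage and 1 was lower, with 0 higher (median 0.01), beside 10% lower over all genes. In oocytes 1 of 12 was called, beside 12% of all genes: Tinf2, a subunit of the shelterin complex that caps telomeres, was higher in knockout (58.8 ± 7.94 and 76.5 ± 13.7 CPM, 0.41, SE 0.10, adjusted p = 0.00443). Of 23 other SCAN zinc finger genes, 10 were tested at the 2-cell stage, with 2 higher and 1 lower (median 0.16), beside 7.3% higher and 10% lower over all genes. Zscan5b was 41.5 ± 27.1 and 17.9 ± 9.60 CPM (-1.16, SE 0.28, adjusted p = 0.00377). Zscan21 was 72.5 ± 22.5 and 105 ± 31.4 CPM (0.58, SE 0.15, adjusted p = 0.00812), and Zkscan6 25.4 ± 8.14 and 40.5 ± 19.7 CPM (0.72, SE 0.20, adjusted p = 0.0131). The mean of Zscan5b at the 4-cell stage was 154 CPM in wildtype, against 175 CPM in knockout, where those of the 5 Zscan4 copies were at most 6.66 CPM.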

How the data were processed

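The submitters' processing notes name Trimmomatic 0.32, STAR 2.5.1a, featureCounts 1.5.1 and the mouse build mm10. The authors deposited estimated counts per gene, 30.6% of whose non-zero values are not whole, and these were rounded to whole numbers. Strand use and the treatment of reads with several matches are not given in the sources used here. Libraries under 100000 counts were left out (1 of 128). Genotype effects within a stage, and stage changes and their interaction in fits of 4 groups, were tested on all genes with edgeR 4.0.16 (quasi-likelihood F test, robust, TMM factors, filterByExpr by group; R 4.3.3), with Benjamini-Hochberg adjustment over all genes tested and a threshold of 0.05. SE is the log2 fold change over the root of F, which is unreliable for values near no change. TMM takes most genes as unchanged, and the median log2 change over all genes was 0.17 from MII to 2-cell and -0.43 from 2-cell to 4-cell in wildtype (0.33 and -0.76 with RLE factors). Alternatives used RLE factors, DESeq2 1.42.0, limma 3.58.1, other filters, replicate numbers as a block, depth and left-out libraries. The edgeR fit was tested on simulated data.

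The members, gene lists and alternatives were chosen with earlier results of these data known. Named are the members, Kdm4a, the 6 genes nearest to the Zscan4 sum in each ranking among symbols that are not provisional, and up to 3 called genes per list, those of smallest p, from the stage where the list had most calls. Duxf3, Bmp15 and Arg2 were named after their values were seen. No pair of libraries of a group lay within sampling noise (chi-square per gene of at least 4.75). Identifiers and positions are from the GENCODE annotation of mm10 and match the deposited positions. Intervals and floors cover counting error only, since the reads carry no molecular identifiers. Python 3.11.15 with pandas 2.3.3, numpy 2.4.6 and Biopython 1.88 did the rest.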

Additional observations from a re-analysis of the deposited data

Results flagged for a closer look

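The change of Tcstv3 from the oocyte to the 2-cell embryo differed between genotypes, by an interaction term in edgeR of -0.96 on the log2 scale (knockout minus wildtype, SE 0.23, adjusted p = 0.00959, Benjamini-Hochberg). The mean of Tcstv3 went from 38.4 to 312 CPM in wildtype and from 51.5 to 213 CPM in knockout. Over 7 alternatives the term ran from -1.08 to -0.80 and its adjusted p from 0.00233 to 0.255, and 5 of the 7 called it.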

How the results depend on the processing

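Across all settings, 610 of 664 values of single genes kept their direction and side of the threshold, 23 gained a call, 15 lost one and 16 changed sign. The copies share reads, depth puts most 4-cell and 8-cell values at a few counts, and the causes of the changes below were not tested.

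The number of the 7 genes called between genotypes in oocytes was 1, and it was 2 with DESeq2 or without knockout replicate 15, and 0 in replicates 9 to 16 or with limma. Over all genes 919 of 7680 were called. In those settings, in the same order, 1124 of 7680, 1517 of 7742, 161 of 7539 and 846 of 7680 were called. At the 2-cell stage the number of the 7 genes called was 1, with 0 without a filter on low counts or in replicates 1 to 8, 2 in replicates 9 to 16 and 6 with limma, and it ran from 0 to 5 when single embryos were left out. Over all genes 1512 of 8728 were called. In those settings, in the same order, 2146 of 31322, 1375 of 8682, 140 of 8584 and 1494 of 8728 were called, and 1220 to 1781 with single embryos left out. Without a filter 3 genes were called higher in knockout at the 8-cell stage (Zscan4b 4.31, Zscan4c 3.48 and Zscan4f 3.56), where 0 counts prevail. In that setting 2311 of 25985 genes tested were higher. The knockout means of these 3 were 1.17, 0.638 and 1.03 CPM. They were 0.251, 0.156 and 0.655 CPM without replicates 7 and 16. The interaction from MII to 2-cell, with 1 called, had 0 in replicates 1 to 8 and 0 in 9 to 16, beside 421 of 10240, 508 of 10159 and 5 of 10185 genes. That from 2-cell to 4-cell, with 0 called, had 1 when 10 CPM in 16 libraries were required or without 4-cell wildtype replicate 11. Over all genes 1673 of 10766 were called, and 1518 of 8568 and 1767 of 10875 in these settings. From 4-cell to 8-cell 1 of the 7 genes was called in wildtype, with 4 without a filter and 0 with DESeq2, the replicate block, replicates 1 to 8 or 9 to 16. Over all genes 1817 of 8822 were called. In those settings, in the same order, 4319 of 28803, 1742 of 8822, 1791 of 8822, 854 of 8941 and 1385 of 8529 were called. In knockout 0 of the 7 genes were called, and 1 without both replicates 7 and 16, beside 1057 of 8822 and 1341 of 8890 over all genes. The interaction had 3 without a filter, all higher, where 751 of 28803 genes were higher.

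The replicate numbers gave little sign of pairing the libraries: at the 4 stages 5, 3, 4 and 5 of 15 or 16 pairs had deviations correlated over 0.1. A wildtype library correlated best with the knockout library of its own number in 2, 0, 0 and 2 pairs. A shared batch was not tested. A replicate block gave 5 genes called at the 2-cell stage, all Zscan4 copies that share reads (-1.85 for Zscan4b to -1.02 for Zscan4d), and not Tcstv3. By that fit 593 of 8728 genes were lower. The labels give no reason for such a block, so nothing is drawn from these calls. With the block the genes called fell from 826 to 130 at the 8-cell stage, from 1673 to 958 for the interaction from 2-cell to 4-cell and from 241 to 7 for that from 4-cell to 8-cell.

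Over all genes, calls between genotypes were 919 in oocytes (161 in replicates 9 to 16, 1517 without knockout replicate 15), 1512 at the 2-cell stage (140 in replicates 9 to 16), 1229 at the 4-cell stage (138 in replicates 1 to 8, 412 in 9 to 16) and 826 at the 8-cell stage (1 and 111, and 318 with limma). Without a filter they were 2670 at the 4-cell and 2895 at the 8-cell stage. Without a filter the stage changes had 14100 calls instead of 5255 (MII to 2-cell, wildtype) and 13545 instead of 5052 (knockout), 16904 instead of 8046 and 16420 instead of 8074 (2-cell to 4-cell), and 4319 instead of 1817 and 2869 instead of 1057 (4-cell to 8-cell). The last pair had 854 and 633 in replicates 1 to 8, and knockout 564 in 9 to 16. The interactions had 421, 1673 and 241 calls. The first had 658 with DESeq2, 221 without a filter and 5 in replicates 9 to 16. The second had 637 in replicates 1 to 8 and 329 in 9 to 16. The third had 484 with RLE factors, 1030 without a filter, 5 and 7 in the same splits and 99 without 8-cell knockout replicates 7 and 16.

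None of the values that changed sign was called. Between genotypes they were Zscan4d in oocytes (-0.41 in replicates 1 to 8) and Tcstv1 at the 2-cell stage (-0.040 in replicates 9 to 16). In the interaction from MII to 2-cell, replicates 1 to 8 gave 0.45 for Zscan4b, 1.08 for Zscan4c, 0.74 for Zscan4e and 0.51 for Zscan4f. In that from 2-cell to 4-cell, Tcstv1 was at -0.0065 with RLE factors, -0.011 with DESeq2 and -0.30 in replicates 9 to 16. Tcstv3 was at 0.63 with the block, 1.04 in replicates 1 to 8 and 1.02 without 4-cell wildtype replicate 11, and Zscan4b at -0.17 in replicates 1 to 8. In that from 4-cell to 8-cell, Zscan4d was at -0.0060 without a filter, -1.42 in replicates 9 to 16 and -0.081 without both 8-cell knockout libraries.

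Scaling the members' levels by TMM in place of library totals kept the direction of each genotype difference that both gave. Fitted as 1 gene, the Zscan4 sum had another direction than some copies: -0.014 in oocytes beside 0.31 for Zscan4d, and 1.03 in the interaction from 2-cell to 4-cell beside -1.44 for Zscan4c and -1.04 for Zscan4f. Without 4-cell wildtype replicate 11 the interaction of the Tcstv sum from 2-cell to 4-cell went from -1.07 to 0.73.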
